A study of Arabidopsis thaliana with 42 samples.

Results

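The small heat shock proteins of organelles were followed in Arabidopsis thaliana seedlings during heat. Their genes were chosen by locus, and the 6 loci are HSP21 (plastid), HSP22.0 (endoplasmic reticulum), HSP23.5, HSP23.6 and HSP26.5 (mitochondrion) and HSP15.7 (peroxisome). They account for 6 of 27655 genes and 7 of 48359 transcripts in the deposited table, and all 6 passed the filter on low values. Transcripts were measured by stranded mRNA sequencing of whole seedlings, 10 days old, of the Columbia-0 (Col-0) background. The mutant upf3-1upf1-5, called upf, is compromised in nonsense-mediated decay (NMD), which removes transcripts with an early stop codon, and was sampled at 0, 15, 30, 45 and 90 min at 44 °C in liquid medium. Wild type was sampled at 15, 30, 45 and 90 min of heat in medium with cycloheximide (CHX, 10 µg/L per the labels), an inhibitor of translation, and at 0, 15, 30, 45 and 90 min without CHX. Each of the 14 groups held 3 libraries, each from several plants. CHX was given only to heated wild type, and no unheated seedlings were taken after 0 min, so heat and time since 0 min cannot be told apart. In whole seedlings, fewer cells with a transcript and less of it per cell cannot be told apart.

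Small heat shock proteins are chaperones with a conserved alpha-crystallin domain that form oligomers and hold unfolding proteins in a state from which other chaperones can refold them, without using ATP themselves. Most plant members stay in the cytosol, while those described here are made from nuclear genes and carry signals for an organelle. Their transcription in heat is driven by heat shock factors, which bind heat shock elements made of inverted GAA and TTC units. HSP21 is known for protecting plastid functions in heat, and its protein is degraded by the plastid protease FTSH6 during recovery.

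Positions are those of the RefSeq annotation of TAIR10.1; the labels name TAIR10, and all 7 transcripts were found by identifier. HSP21 (AT4G27670) lies on chromosome 4 from 13818825 to 13819971 on the minus strand, with 2 exons. HSP22.0 (AT4G10250) lies on chromosome 4 from 6370338 to 6371372 on the plus strand and has 1 exon. HSP23.6 (AT4G25200) lies on chromosome 4 from 12916926 to 12918110 on the plus strand, and HSP23.5 (AT5G51440) on chromosome 5 from 20891163 to 20892416 on the plus strand, each with 2 exons. HSP26.5 (AT1G52560) lies on chromosome 1 from 19574538 to 19575866 on the minus strand, with 2 exons and 2 listed transcripts. HSP15.7 (AT5G37670) lies on chromosome 5 from 14968758 to 14969591 on the plus strand and has 1 exon. No other gene overlaps any of them. The coding sequences of HSP23.5 and HSP23.6 were 74.3% identical over 618 aligned bases, and the other pairs were between 54.7% and 65.2% identical, so the mitochondrial pair are the closest relatives here.

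The 250 bases before the annotated start are shown for 3 genes. HSP21 had the largest log2 change at 90 min of heat in wild type with a pseudocount of 1, though not with 10. HSP22.0 had no 2-unit heat shock element in its window, and HSP23.5 had the highest level per length before heat. Capitals mark 2-unit heat shock elements, searched on both strands as GAANNTTC or TTCNNGAA, which can lie within a 3-unit element.
HSP21, chr4:13819972-13820221, minus strand, TAIR10.1: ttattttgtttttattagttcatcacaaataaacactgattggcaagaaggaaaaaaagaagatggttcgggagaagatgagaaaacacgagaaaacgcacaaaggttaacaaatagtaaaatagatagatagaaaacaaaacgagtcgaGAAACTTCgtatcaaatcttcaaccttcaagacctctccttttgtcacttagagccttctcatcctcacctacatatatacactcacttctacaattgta
HSP22.0, chr4:6370088-6370337, plus strand, TAIR10.1: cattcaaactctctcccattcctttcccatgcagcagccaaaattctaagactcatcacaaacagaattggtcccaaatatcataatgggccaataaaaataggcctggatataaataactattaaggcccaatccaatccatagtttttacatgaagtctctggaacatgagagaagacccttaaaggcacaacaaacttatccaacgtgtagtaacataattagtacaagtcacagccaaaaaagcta
HSP23.5, chr5:20890913-20891162, plus strand, TAIR10.1: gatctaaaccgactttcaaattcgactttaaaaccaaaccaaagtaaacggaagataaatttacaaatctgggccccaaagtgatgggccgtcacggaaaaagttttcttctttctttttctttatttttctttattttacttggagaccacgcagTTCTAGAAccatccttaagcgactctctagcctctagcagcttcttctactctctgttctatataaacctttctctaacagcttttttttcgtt
Over 300 bases (250 before and 50 after the start), 5 of 6 genes held a 2-unit element, against 19.3% of 27443 protein-coding genes and 4 of 12 cytosolic small heat shock protein genes. In HSP21 the elements began at -100 and +27 from the start, in HSP26.5 at -48, in HSP23.5 at -94, in HSP15.7 at -158 and in HSP23.6 at +14. The 3-unit element, which is GAANNTTC with NNGAA after it or TTCNNGAA with NNTTC after it, was in 0 of 6 genes, in 2 of 12 cytosolic genes and in 0.481% of all. The endoplasmic reticulum stress element, CCAAT and CCACG with 9 bases between them, was in 0 of 6 genes, HSP22.0 included, and in 0.397% of all. CCGAC, the core of the dehydration-responsive element, was in HSP23.5 and in 15% of all, and TATAAA was in 5 of 6 and in 52.1% of all. A match is a stretch of letters and does not show that a factor binds there.

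Library totals were 14.7 to 30.96 M normalized counts, and the lanes of a library correlated at 0.905 or more on the log2 scale. UPF1 averaged between 499 and 636 normalized counts in the 5 upf groups and between 1728 and 2150 in the 5 groups of wild type without CHX; UPF3 averaged between 130 and 170 in upf and between 494 and 654.5 in wild type. The third upf library at 0 min was the highest of its group for all 6 genes, and values without it are given beside the differences between upf and wild type that rest on it.

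All 6 genes rose in heat at every time, in upf, in wild type with CHX and in wild type without it (limma, adjusted p under 0.05 and at least 2-fold). Genes that rose made up 8.03%, 10.7%, 11.4% and 11% of 20747 tested in upf at 15, 30, 45 and 90 min. In wild type with CHX, set against unheated wild type without CHX, they were 9.37%, 12.5%, 12.4% and 12.4%, and in wild type 8.92%, 11.5%, 12.7% and 12.2%. The median log2 change of the 6 at 90 min was 10.74 in upf, 10.43 with CHX and 11.61 in wild type, against -0.11, -0.03 and -0.14 for all genes tested. Together the 6 genes held 0.00270% of all normalized counts in upf at 0 min and 1.07% at 90 min, and 0.00198% and 1.03% at the same times in wild type; with CHX they held 0.612% at 90 min.

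HSP21, the plastid chaperone, was near 0 before heat. In upf its libraries held 2.5, 3 and 10 normalized counts at 0 min, 687.5, 451.5 and 873.5 at 15 min, and 9628, 8927.5 and 14080.5 at 30 min. They held 21767.5, 21287 and 22776 at 45 min and 21772.5, 24207 and 19284 at 90 min. Each heated library stood far above the unheated ones, and the 45 and 90 min libraries overlapped. With CHX, wild-type libraries held 334.5, 534.5 and 385.5 at 15 min, 6309, 6473 and 7883.5 at 30 min, 11153, 12585 and 17618 at 45 min, and 8609.5, 8948 and 10688.5 at 90 min. In wild type without CHX they held 1, 0 and 3.5 at 0 min, 556, 473.5 and 488.5 at 15 min, 11319.5, 11508.5 and 13260.5 at 30 min, 26486, 27851 and 32095.5 at 45 min, and 27362, 28076.5 and 28360 at 90 min. At 90 min the log2 change against 0 min was 11.98 (SE 0.33) in upf and 13.71 (SE 0.33) in wild type, which was the largest of the 6. With values this low before heat its size depends on the pseudocount: at 10 in place of 1 it was 10.51 in upf and 11.26 in wild type. HSP21 was then no longer first. At that pseudocount HSP23.6 rose by 11.24 in upf and 12.14 in wild type, and HSP22.0 by 10.80 and 11.33.

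HSP22.0, the chaperone of the endoplasmic reticulum, peaked at 45 min. In upf its libraries held 5.5, 8 and 33.5 normalized counts at 0 min, 2656, 1756 and 2810 at 15 min, 32562, 29182.5 and 25588 at 30 min, 52242.5, 55556 and 53649.5 at 45 min, and 46009, 42704 and 35133 at 90 min. With CHX they held 1585, 1958 and 1657 at 15 min, 14351, 19257 and 18951.5 at 30 min, 22766.5, 33652.5 and 25477 at 45 min, and 17265, 18918.5 and 23687 at 90 min. In wild type without CHX they held 3, 3.5 and 11 at 0 min, 2106.5, 1655.5 and 1987 at 15 min, 33024.5, 35261.5 and 38458.5 at 30 min, 58316, 62249 and 61249.5 at 45 min, and 40520.5, 41942.5 and 36980 at 90 min. At 90 min the mean was 76.7% of that at 45 min in upf and 65.7% in wild type without CHX, but neither step passed the test. The log2 changes were -0.39 (adjusted p = 0.771, limma) in upf and -0.61 (adjusted p = 0.430) in wild type. The fit gives a gene the same spread in all 14 groups, so the low and scattered values at 0 min also enter these p-values.

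Of the 3 mitochondrial genes HSP23.5 stood apart before heat, while the libraries of HSP23.6 and HSP26.5 overlapped per length. HSP23.6 averaged 42 ± 35.8 normalized counts in upf and 20.3 ± 14.003 in wild type at 0 min (SD, n = 3 each), and 107343 ± 13841 and 126366 ± 6631 at 90 min. Its log2 changes at 90 min were 11.64 (SE 0.40) in upf, 11.36 (SE 0.40) with CHX and 12.80 (SE 0.40) in wild type. HSP23.5, its closest relative, averaged 284 ± 130 in upf and 248.7 ± 64.9 in wild type at 0 min, and 51063 ± 6633 and 50092 ± 807 at 90 min. Its log2 changes, 7.57, 6.78 and 7.68 in the same order (SE 0.22 each), were the smallest of the 6. HSP26.5 averaged 20.0 ± 10.8 in upf and 11.3 ± 1.53 in wild type at 0 min, and 17736 ± 2159 and 18142 ± 820 at 90 min.

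HSP15.7, the peroxisomal chaperone, averaged 41.8 ± 16.6 normalized counts in upf and 32.7 ± 8.04 in wild type at 0 min, and 19447 ± 4135 and 21214 ± 681 at 90 min. The log2 changes at 90 min were 8.87 (SE 0.23) in upf, 8.60 (SE 0.23) with CHX and 9.33 (SE 0.23) in wild type.

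**Figure D1:**
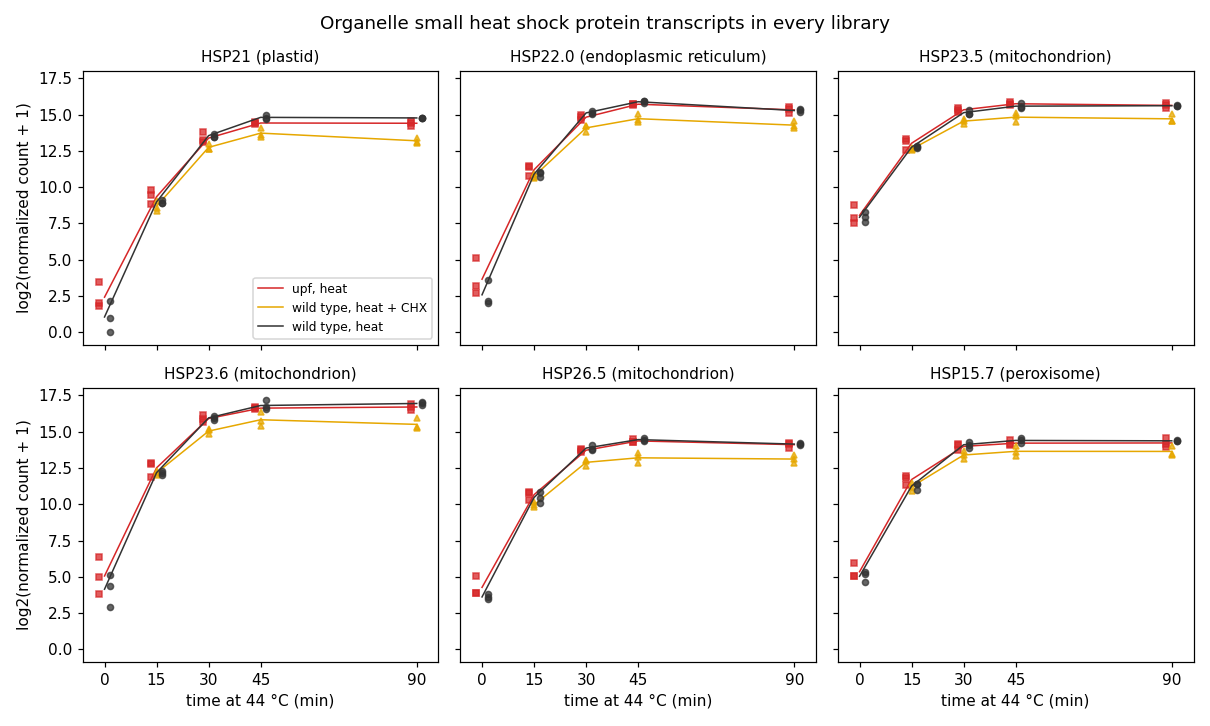
Level of each gene in every library as log2(normalized count + 1) against time at 44 °C in minutes, for upf (red squares), wild type with CHX (yellow triangles) and wild type (black circles); points are libraries, set slightly apart sideways, and lines join the means of 3. All heated libraries lie above the unheated ones, and from 30 min on the CHX libraries lie below the libraries of heated wild type.

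The genes differed in how much of their rise had come by 15 min. Each gene's mean was set against its own highest mean in the same series, as a description without a test. At 15 min in wild type HSP21 stood at 1.76% of its peak, HSP22.0 at 3.16%, HSP23.6 at 3.68%, HSP26.5 at 6.44%, HSP15.7 at 11.3% and HSP23.5 at 13.8%. In upf HSP21 was again lowest, at 3.06%, and HSP15.7 highest, at 17.5%. With CHX HSP21 stood at 3.03% and HSP23.5 at 21.3%. Between 15 and 30 min all 6 genes rose in all 3 series, where 3.88% of genes rose in upf, 3.26% with CHX and 4.64% in wild type. HSP21 rose most over that step, by a log2 change of 4.04 in upf, 4.06 with CHX and 4.57 in wild type (SE 0.33 each). Between 30 and 45 min HSP21 in wild type alone passed the test (log2 change 1.26, SE 0.33, adjusted p = 0.024), where 0.636% of genes rose, and it did not pass in 4 of 6 fits that left out 1 library. None of the 6 passed in upf or with CHX over that step, where 0.28% and 0.337% of genes rose, or in any series between 45 and 90 min, where 0.983% of genes changed in upf, 2.5% with CHX and 1.66% in wild type.

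**Figure D2:**
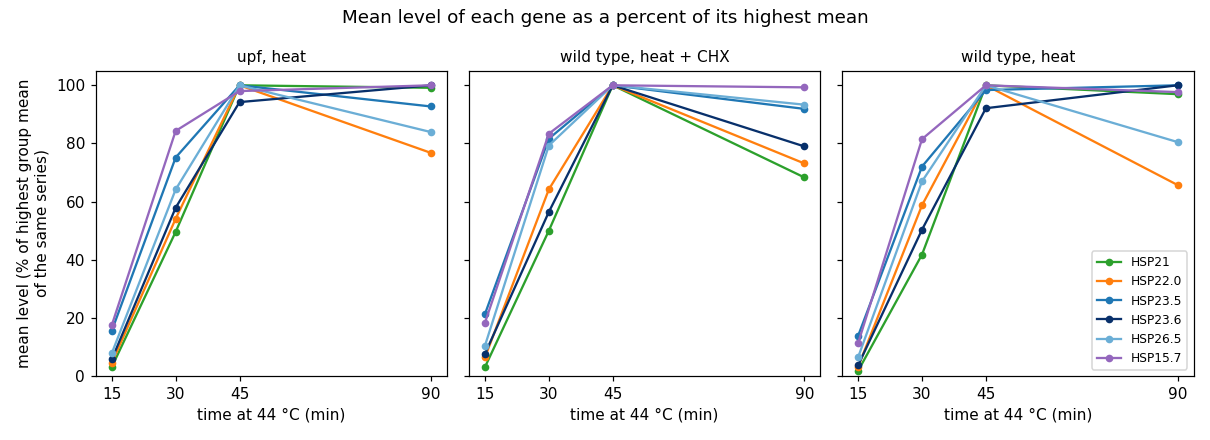
Mean level of each gene (n = 3 libraries) as a percent of its highest mean in the same series, against time at 44 °C in minutes; panels show upf, wild type with CHX and wild type, and colours show genes. HSP21 lies lowest at 15 min, at 3.06%, 3.03% and 1.76% of its peak in the 3 panels, and HSP22.0 lies at 76.7%, 73.1% and 65.7% at 90 min.

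Levels were compared between genes as normalized counts per kilobase of annotated transcript. Before heat HSP23.5 was highest, with 255 ± 117 per kilobase in upf and 223 ± 58.2 in wild type, and its libraries did not overlap those of the next gene, HSP15.7. Below it neighbouring genes overlapped in both genotypes, with HSP21 last at 5.26 ± 4.27 in upf and 1.53 ± 1.83 in wild type. At 15 min HSP23.5 was still first in upf, with CHX and in wild type, though its libraries overlapped those of HSP23.6 in upf. From 30 min on HSP23.6 was highest in every group and did not overlap the next gene; at 90 min it had 102427 ± 13207 per kilobase in upf, 45352 ± 12007 with CHX and 120578 ± 6328 in wild type. At 90 min in wild type HSP21 had 28416 ± 523 and HSP15.7 had 25437 ± 817 per kilobase, with no overlap; in upf they had 22131 ± 2504 and 23317 ± 4957, which overlapped, and with CHX 9578 ± 1135 and 15592 ± 3675, which did not.

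The comparison of upf with wild type asks whether these transcripts differ in a mutant compromised in NMD. At 0 min HSP21 and HSP22.0 were higher in upf, by log2 changes of 1.37 (SE 0.33, adjusted p = 0.003) and 1.07 (SE 0.34, adjusted p = 0.024), where 5.99% of genes were higher. Both had overlapping libraries: HSP21 held 2.5, 3 and 10 normalized counts in upf against 1, 0 and 3.5 in wild type, and HSP22.0 held 5.5, 8 and 33.5 in upf against 3, 3.5 and 11 in wild type. Without the third upf library the changes were 0.85 (adjusted p = 0.075) and 0.35 (adjusted p = 0.463). Without the second wild-type library they were 0.84 (adjusted p = 0.080) and 0.87 (adjusted p = 0.144), and without the first that of HSP22.0 was 0.78 (adjusted p = 0.165). With a pseudocount of 10 the changes were 0.38 (adjusted p = 0.202) and 0.57 (adjusted p = 0.085). The authors' deposited table has 1.94 for HSP21 (adjusted p = 0.0019), 1.44 for HSP22.0 (6.3e-06) and 1.05 for HSP23.6 (6.5e-04). For the first and second forms of HSP26.5 it has 0.755 (0.015) and 1.77 (0.017). HSP15.7 (0.363, 0.174) and HSP23.5 (0.19, 0.431) changed less there. That table gives no values without the third upf library. HSP26.5 was the 1 gene whose upf libraries (13.5, 14 and 32.5) all lay above those of wild type (13, 10 and 11), as did 21% of all genes; its log2 change of 0.66 was under 2-fold (adjusted p = 0.032) and was 0.27 (adjusted p = 0.449) without the third upf library. Seed maturation markers, from a stage at which small heat shock proteins are also made, summed to 6410, 10306.5 and 10461 normalized counts in the upf libraries 1 to 3 at 0 min and to 243, 857 and 8618.5 in those of wild type. Of these markers, 5 of 8 were higher in upf by the test and none was at 0 throughout a group; their part in the difference was not tested.

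No gene passed the test between upf and wild type at 15, 30, 45 or 90 min, when 7.66%, 9.79%, 10.4% and 10.8% of genes differed in either direction. The log2 changes ran from 0.19 to 0.45 at 15 min and from -0.37 to 0.05 at 90 min. For HSP23.6 the 95% interval at 90 min was -1.06 to 0.57, and for HSP23.5 it was -0.42 to 0.46. Both intervals use the spread that a gene shares over all 14 groups. For HSP23.6 that includes the scattered upf libraries at 0 min, with 13, 31 and 82 normalized counts. HSP21 in upf lay below wild type in every library at 45 min and 90 min, as did 20.3% and 19.3% of genes, with means of 21944 against 28811 and of 21755 against 27933. HSP22.0 in upf lay below wild type in every library at 30 min, as did 16.3% of genes, and at 45 min, with means of 29111 against 35582 and of 53816 against 60605; at 90 min its libraries overlapped. In the authors' deposited table HSP21 has log2 changes of -0.393 at 45 min (adjusted p = 0.010) and -0.361 at 90 min (adjusted p = 0.021). At 15 min the direction there is the opposite, with HSP15.7 (0.466, adjusted p = 0.006), HSP21 (0.41, 0.012) and HSP22.0 (0.33, 0.044) higher in upf. All of these are under 2-fold, and no other adjusted p of the 6 genes in heat is under 0.05 in that comparison.

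The rise of HSP21 from 0 min was smaller in upf at 45 and 90 min, by log2 differences of -1.75 (SE 0.47, adjusted p = 0.029) and -1.73 (SE 0.47, adjusted p = 0.030), where 0.588% and 0.468% of genes had a smaller rise or a larger fall. These differences include the difference at 0 min, and without the third upf library at 0 min they were -1.24 (adjusted p = 0.141) and -1.21 (adjusted p = 0.152). Without the second wild-type library at 0 min they were -1.23 (adjusted p = 0.154) and -1.20 (adjusted p = 0.160), and they did not pass in 7 and 6 of 12 fits that left out 1 library. With a pseudocount of 10 they were -0.77 (adjusted p = 0.155) and -0.74 (adjusted p = 0.171). At 15 and 30 min, where 0.0627% and 1.06% of genes differed, none of the 6 passed. The other 5 genes did not pass at 45 or 90 min: at 90 min the differences were -1.15 for HSP23.6, -1.03 for HSP22.0, -0.70 for HSP26.5, -0.46 for HSP15.7 and -0.11 for HSP23.5. Without the third upf library at 0 min they were -0.50, -0.31, -0.30, -0.16 and 0.24 in the same order, so that of HSP23.5 turned sign.

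**Figure D3:**
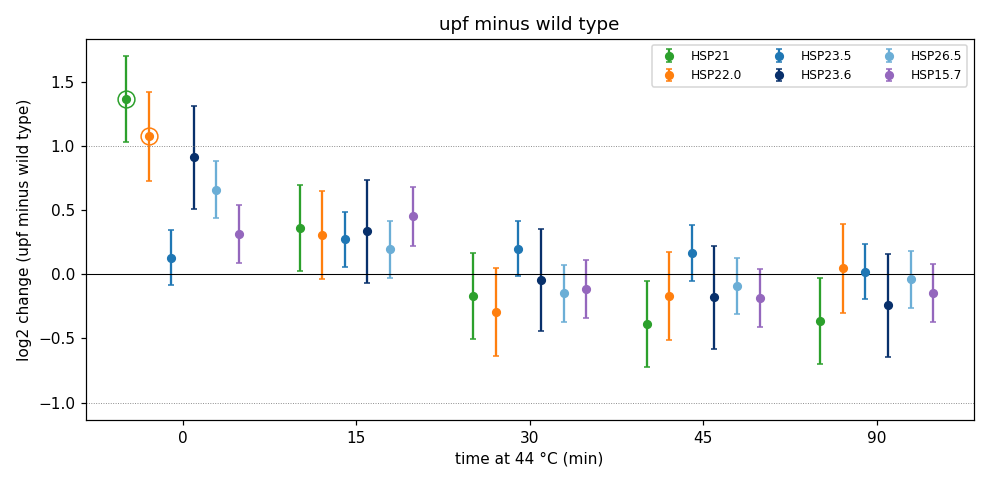
Log2 change of upf minus wild type at each time at 44 °C in minutes; points are estimates from limma, bars their standard errors, and rings mark changes that passed the test (adjusted p under 0.05 and at least 2-fold, dotted lines). The rings are on HSP21 and HSP22.0 at 0 min, at 1.37 and 1.07, and on no gene in heat.

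The comparison of heat with CHX and heat alone asks what CHX did to the heat response of wild type. The data hold no measure of how far translation was blocked. At 15 min no gene passed, with log2 changes from -0.51 to -0.02, where 4.73% of genes differed in either direction. At 30 min HSP22.0 was lower with CHX (-1.03, SE 0.34, adjusted p = 0.015), where 2.44% of genes were lower. At 45 min HSP26.5 (-1.25, SE 0.22, adjusted p = 2.6e-05), HSP22.0 (-1.17, SE 0.34, adjusted p = 0.006) and HSP21 (-1.09, SE 0.33, adjusted p = 0.009) were lower, where 2.48% of genes were. At 90 min HSP21 (-1.58, SE 0.33, adjusted p = 2.4e-04), HSP23.6 (-1.44, SE 0.40, adjusted p = 0.004), HSP26.5 (-1.03, SE 0.22, adjusted p = 2.8e-04) and HSP22.0 (-1.01, SE 0.34, adjusted p = 0.016) were lower, where 2.77% of genes were. Of 6 reference genes, 2 were also lower with CHX at 90 min, ACT8 by -1.15 (adjusted p = 2.6e-06) and UBQ10 by -1.03 (adjusted p = 5.1e-05), and none under equal totals. HSP23.5 (-0.90) and HSP15.7 (-0.73) had adjusted p of 8.7e-04 and 0.009 at 90 min but changed less than 2-fold. Leaving out 1 library ended some of these calls: that of HSP22.0 at 30 min without the first CHX library (-0.89) or the third of heat alone (-0.97), and that of HSP21 at 45 min without the first CHX library (-0.95). At 90 min the call of HSP22.0 was lost without either of the first 2 libraries of each group (-0.99 to -0.91), and that of HSP26.5 without the first CHX library (-0.90). At 30 min HSP26.5 (-0.98, adjusted p = 5.3e-04) was just under 2-fold and passed in 4 of 6 such fits. With CHX each of the 6 genes lay below heat alone in all libraries at 30, 45 and 90 min, as did 21.1%, 18.3% and 21.1% of genes. In the authors' deposited table all 7 transcripts are lower with CHX at those times. The log2 changes there run from -1.569 to -0.584, with adjusted p of 2.2e-04 or less. At 15 min only the first form of HSP26.5 has an adjusted p under 0.05 there (-0.575, adjusted p = 2.7e-04). That table gives no values under equal totals.

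The mean of HSP21 with CHX was 82.6%, 57.3%, 47.8% and 33.7% of that without it at 15, 30, 45 and 90 min, and that of HSP23.6 was 98.6%, 53.4%, 51.7% and 37.6%. HSP15.7 stood at 97.5%, 61.7%, 60.3% and 61.3% at the same times. Whether the effect of CHX had changed since 15 min was tested directly, and no gene passed: at 90 min the differences were -1.42 for HSP23.6 (adjusted p = 0.085) and -1.28 for HSP21 (adjusted p = 0.063). That depends on the settings: both passed with a pseudocount of 10 (adjusted p = 0.030 and 0.0017) and with the groups of the comparison fitted alone (adjusted p = 0.0017 and 0.0018), HSP21 passed with median-of-ratios scaling (adjusted p = 0.047), and HSP22.0 passed at 45 min under the first 2 of these (-1.03, adjusted p = 0.043 and 0.022). The share of genes that passed in that direction was 1.14%, 1.6% and 2.14% at 30, 45 and 90 min. Libraries of heat alone had larger totals than those with CHX, and the calls depend on how libraries are scaled. With every library scaled to an equal total none of the 6 passed at 30 and 45 min, and HSP21 (-1.14) and HSP23.6 (-1.004) passed at 90 min. That scaling moved the median log2 change of all genes at 90 min to 0.50, against 0.08 as deposited. Relative to that median HSP21 changed by -1.64 under equal totals and by -1.65 as deposited, and all 6 genes were lower under both scalings at 30, 45 and 90 min. Root markers summed to between 26821.5 and 33745 normalized counts with CHX and between 10461 and 17749.5 without it at 30 min, and to 3454 to 4168 and 5496.5 to 6359.5 at 90 min; nearly all of each sum was PYK10, which averaged 29926 with CHX and 13358 without it at 30 min. Other root markers went with PYK10 in part. At 30 min PRX34 averaged 907 with CHX and 520 without it, and COBL9 16.7 and 8. WOX5 averaged 20.3 and 54.5 then, and EXP7 49.5 and 50.5. At 90 min WOX5 averaged 21.5 with CHX and 46.7 without it, and COBL9 was lower with CHX too. PRX34 averaged 224 and 125 then, and EXP7 26.8 and 22.7. These markers also moved in heat alone: from 0 to 90 min PYK10 fell from 33447 to 5753 and WOX5 rose from 5.83 to 46.7. None of the 5 was at 0 throughout a group, and their part in the differences was not tested. Shoot markers summed to between 577592 and 957490 with CHX and between 805065 and 1151614 without it at 90 min.

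**Figure D4:**
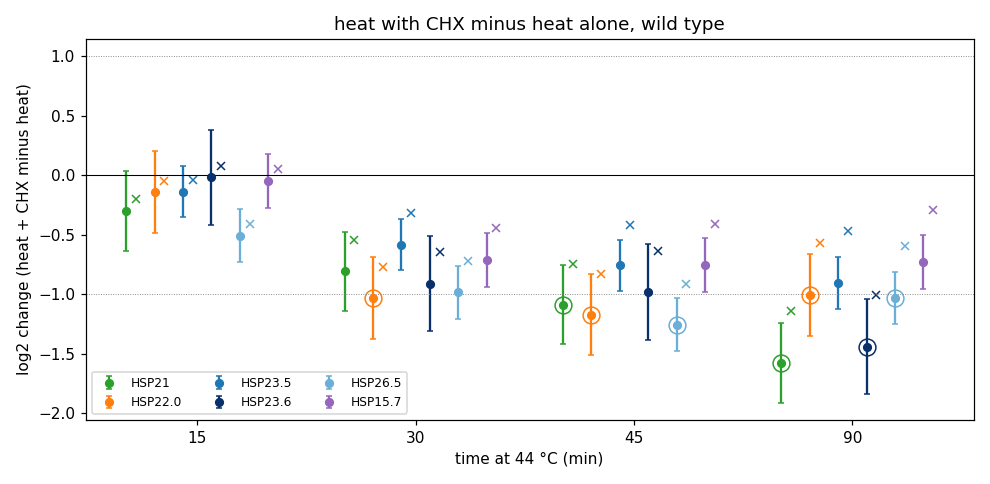
Log2 change of heat with CHX minus heat alone in wild type against time at 44 °C in minutes; points are estimates from limma with standard errors, rings mark changes that passed the test, and crosses give the estimate with every library scaled to an equal total. Estimates lie between -0.51 and -0.02 at 15 min and between -1.58 and -0.73 at 90 min, and the crosses lie higher.

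HSP26.5 was the 1 gene with more than 1 listed transcript. Both have 2 exons, and the second, shorter form uses an acceptor 21 bases further into the second exon, which keeps the reading frame. The sequence around both acceptors is shown because those bases are what the forms differ by, with the bases that the second form lacks in capitals.
HSP26.5, acceptors of the intron, chr1:19575161-19575231, minus strand, TAIR10.1: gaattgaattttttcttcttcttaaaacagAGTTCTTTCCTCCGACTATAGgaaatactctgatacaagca
Neither form has an early stop codon in the annotation. The second form made up 21.1 ± 7.61% of the gene's normalized counts in upf and 12.0 ± 5.51% in wild type at 0 min, where it held 3.5, 3.5 and 4 in upf and 1, 1 and 2 in wild type. At 15 min its share was 16.8 ± 3.77% in upf, 21.2 ± 1.77% with CHX and 19.3 ± 2.17% in wild type. At 30 min it was 13.8 ± 2.53%, 16.0 ± 0.820% and 14.8 ± 1.45% in the same groups, and at 45 min 19.1 ± 0.665%, 19.3 ± 2.73% and 19.3 ± 2.94%. At 90 min it was 22.4 ± 1.57% in upf, 24.3 ± 4.21% with CHX and 21.2 ± 3.04% in wild type. At 45 min and again at 90 min the libraries of the 3 groups overlapped, and no test was made of the shares. Reads that do not cross the junction cannot tell the forms apart, so the shares are estimates.

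The related genes of each compartment are given by their counts, beside which the share of all genes that rose at 90 min stands above. As deposited, 4173 of 20747 genes fell at 90 min in upf, 2973 with CHX and 4890 in wild type. Equal totals moved the median log2 change of all genes at 90 min to -0.76 in upf, -0.36 with CHX and -0.90 in wild type. Under that scaling 9698, 6603 and 11030 genes changed in the same order, of which 15.04%, 30.99% and 13.31% rose and the others fell. Each count is therefore also given under equal totals where it differs. Of 12 cytosolic small heat shock proteins 11 rose in upf, 10 with CHX and 10 in wild type at 90 min under both scalings, and none fell, with median log2 changes of 9.60, 8.57 and 9.93 as deposited. The largest in wild type were HSP17.6A (AT1G59860, 11.77), HSP18.2 (11.51), HSP17.6C (11.46) and HSP17.4 (10.32). Set against heat alone, 9 of the 12 were lower with CHX at 90 min, with a median of -1.34. Of the 6 organelle genes 4 were, with a median of -1.02, where 2.77% of all genes were lower. Under equal totals 3 of the 12 and 2 of the 6 were lower. That scaling gave 5411 changed genes of 20747 in this comparison, of which 96.82% were higher with CHX.

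Of 11 plastid chaperones and proteases 7 rose in upf, 5 with CHX and 8 in wild type, with medians of 1.21, 0.82 and 1.51, and none fell. Under equal totals 3, 3 and 5 rose, with medians of 0.55, 0.48 and 0.74. FTSH6, the protease named above, rose by 7.71 in upf, 8.53 with CHX and 8.65 in wild type, and CLPB3, the plastid disaggregase, by 4.52, 3.50 and 4.99. Of 9 mitochondrial chaperones and proteases 5 rose in upf, 5 with CHX and 6 in wild type (5 in each under equal totals), led by MTHSC70-2, the heat-induced mitochondrial HSP70 (6.46, 5.36 and 6.98), and the disaggregase CLPB4 (5.11, 4.63 and 5.75).

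Of 11 chaperones of the endoplasmic reticulum 4 rose in upf at 90 min, 1 rose and 2 fell with CHX, and 5 rose in wild type. Under equal totals 4 rose and 3 fell in upf, 1 rose and 6 fell with CHX, and 4 rose and 3 fell in wild type. ERDJ3A, a J-domain co-chaperone, rose in all 3 (6.56, 5.68 and 6.83). BIP1 and BIP2, the main HSP70 chaperones there, rose by 3.09 and 2.97 in upf and by 3.45 and 3.29 in wild type. Set against heat alone, 8 of these 11 were lower with CHX at 90 min (7 under equal totals), where 2.77% of all genes were as deposited. The log2 changes were -3.39 for BIP2 and -3.10 for BIP1, against -1.01 for HSP22.0. Of 9 peroxisomal genes for import and quality control 2 rose in upf, none with CHX and 3 in wild type, and none fell. Under equal totals none rose in any series, while 1 fell in upf, none with CHX and 2 in wild type. Most of all called genes fell under that scaling, as given above. The peroxisomal genes thus have no direction that holds under both scalings. The largest change as deposited, that of the import receptor PEX7, was 1.32 in wild type, against 9.33 for HSP15.7.

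Of 12 heat shock and related factors 8 rose in upf, 9 with CHX and 9 in wild type at 90 min, and none fell; under equal totals the same numbers rose, and 2 fell in upf, 1 with CHX and 2 in wild type. HSFA2, a heat-induced activator of these genes, rose by 7.83 in upf, 9.56 with CHX and 10.49 in wild type. At 0 min it was higher in upf by 2.48 (SE 0.16, adjusted p = 1.2e-12), and the difference in its rise at 90 min was -2.66 (SE 0.23, adjusted p = 2.8e-09). With CHX 1 of the 12 factors, HSFB1, was lower than without it at 90 min (-1.20), where 2.77% of all genes were. Under equal totals none was lower and 1 was higher.

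Likeness of pattern was measured as Pearson's r over the 14 group means of log2(value + 1), as a description; the groups share libraries' scaling and the large step from unheated to heated. Among themselves the 6 genes had r from 0.990 (HSP21 and HSP15.7) to 0.999 (HSP22.0 and HSP26.5). AT5G25450 was among the 3 most alike genes for 5 of the 6, with r = 0.999 for HSP26.5, HSP22.0, HSP23.5 and HSP23.6 and r = 0.998 for HSP15.7. For HSP21 the 3 were AT1G71000 (0.998), AT2G19310 (0.996) and PPI2 (0.996), and for HSP23.6 they included the cytosolic HSP17.4 (0.999).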

How the data were processed

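The values are a score made by the authors: normalized counts for each transcript and lane, rounded to whole numbers, as the deposited tables hold them. Their scaling is not stated, so no count test was run. The submitters' processing notes name kallisto, sleuth and TAIR10, with no roles or versions. The authors' deposited comparison tables give, for each transcript, a log2 change and an adjusted p-value. Lanes were averaged within a library (2 each), transcripts were summed to genes, and genes reaching 10 in 3 or more libraries were tested (20747 of 27655). Changes are on the log2(value + 1) scale, which understates those of low genes; read depth is unknown here. One limma 3.58.1 fit (R 4.3.3) took all 42 libraries, 14 group means and a variance trend, with Benjamini-Hochberg adjustment over all genes tested in each of 37 comparisons. A call needed adjusted p under 0.05 and at least 2-fold. Intervals are limma's, at 95%. The script was tested on simulated data.

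Replicate numbers come from the labels. Every same-numbered correlation was over 0.1 in 8 of 91 pairs of groups, among those compared CHX with heat at 30 min and the CHX steps from 30 to 45 and 45 to 90 min, where the block changed no call; elsewhere they share only a number. Sequences were read from the TAIR10.1 genome with Python 3.11.15 and pandas 2.3.3. The members and lists were chosen with earlier results of these data known. Per list at most 4 genes are named, those with the largest change among the called ones, and per gene the 3 with the highest r. Alternatives covered scaling, pseudocount, filter, lanes, variance trend, block, groups fitted and libraries left out.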

Additional observations from a re-analysis of the deposited data

Results flagged for a closer look

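The rise of HSP21 from 0 min differed between upf and wild type by a log2 change of -1.75 at 45 min (adjusted p = 0.029, limma interaction term) and by -1.73 at 90 min (adjusted p = 0.030). HSP21 was lower in every upf library than in every wild-type library at both times, as were 20.3% of genes at 45 min and 19.3% at 90 min. With a pseudocount of 10 neither interaction term passed (adjusted p = 0.155 and 0.171). They also did not pass in 7 and 6 of 12 fits that left out 1 library. Before heat its libraries held 2.5, 3 and 10 normalized counts in upf against 1, 0 and 3.5 in wild type, and both differences are taken against these values. The cause was not tested.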

How the results depend on the processing

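Of 3804 recomputed log2 changes of the 6 genes, 3664 kept their direction and their side of the threshold. Of the others 50 lost a call, 30 gained one and 60 changed sign. The largest recomputed value among those 60 was 0.24 in size, and none was called in either fit. All 6 genes rose at every heated time against 0 min under every alternative. With equal totals the genes called lower with CHX numbered 0 at 30 min, 0 at 45 min and 2 at 90 min, and with median-of-ratios scaling 2 at 30 min. With a pseudocount of 10 there were 0 called between upf and wild type at 0 min, 0 in the difference of heat responses at 45 min and 0 at 90 min, 1 in the upf step from 30 to 45 min, and 1 at 45 min and 2 at 90 min in the change of the CHX effect since 15 min. With a pseudocount of 0.5 and with the second lane alone the wild-type step from 30 to 45 min had 0. In the difference of heat responses the first lane alone gave 1 at 30 min and 2 at 45 min, and the second lane alone 0 at 45 min and 0 at 90 min. With the groups of a comparison alone there were 0 between upf and wild type at 0 min, 0 at 45 min and 0 at 90 min in the difference of heat responses, and 1 at 45 min and 2 at 90 min in the change of the CHX effect; median-of-ratios scaling gave 1 there at 90 min. With the replicate block there were 1 in the difference of heat responses at 30 min, 1 in the upf step from 30 to 45 min and 2 in the change of the CHX effect at 90 min (HSP21, adjusted p = 0.030, and HSP23.6, adjusted p = 0.046); it changed no other call. Every library correlated best with its own number in 7 of 91 pairs of groups, a hint from the data and not from the design.

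Leaving out 1 library at a time gave 0 to 2 called with CHX at 30 min, 2 to 4 at 45 min and 2 to 5 at 90 min (2 without the first CHX library), 0 to 3 between upf and wild type at 0 min (0 without the third upf or the second wild-type library), 0 to 1 in the wild-type step from 30 to 45 min, and 0 to 2, 0 to 2 and 0 to 1 in the difference of heat responses at 30, 45 and 90 min. The cause was not tested.

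As recomputed, the log2 changes with a turned sign were small. With equal totals they were 0.0255 for HSP23.6 in upf against wild type at 30 min, 0.0044 for HSP22.0 and 0.084 for HSP26.5 in upf against wild type at 45 min, 0.16 for HSP26.5 and 0.054 for HSP15.7 in upf against wild type at 90 min, 0.0796 for HSP23.6 and 0.0515 for HSP15.7 in CHX against heat at 15 min, 0.004 for HSP23.5 in the difference of heat responses at 90 min, and 0.0609 for HSP15.7 in the CHX step from 45 to 90 min. With median-of-ratios scaling they were -0.0042 for HSP22.0 and -0.0296 for HSP23.5 in upf against wild type at 90 min, and 0.0029 for HSP15.7 in the wild-type step from 45 to 90 min. With the second lane alone there was -0.0393 for HSP15.7 in the difference of heat responses at 15 min.

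With 1 library left out the sign turned within these ranges. In CHX against heat at 15 min they were -0.19 to 0.089 for HSP15.7 and -0.0961 to 0.0552 for HSP23.6. Ranges were -0.19 to 0.18 for HSP15.7, -0.30 to 0.0182 for HSP23.5 and -0.28 to 0.0909 for HSP26.5 in the CHX step from 45 to 90 min. In the wild-type step from 45 to 90 min they were -0.13 to 0.0515 for HSP15.7, -0.0982 to 0.0403 for HSP21 and -0.0416 to 0.13 for HSP23.5. Ranges were -0.0169 to 0.44 for HSP15.7, -0.11 to 0.49 for HSP23.5 and -1.20 to 0.0809 for HSP23.6 in the difference of heat responses at 15 min. For HSP23.6 the estimate from all libraries there was -0.58. In the upf step from 45 to 90 min they were -0.15 to 0.15 for HSP15.7, -0.0983 to 0.0657 for HSP21 and -0.0104 to 0.18 for HSP23.6. Ranges were -0.21 to 0.021 for HSP15.7 and -0.18 to 0.077 for HSP23.6 in upf against wild type at 30 min. In upf against wild type at 90 min they were -0.0377 to 0.16 for HSP22.0, -0.0742 to 0.11 for HSP23.5 and -0.11 to 0.064 for HSP26.5. Ranges were -0.19 to 0.42 for HSP23.5 in the difference of heat responses at 30 min. In the difference of heat responses at 45 min they were -0.22 to 0.38 for HSP23.5. Ranges were -0.37 to 0.24 for HSP23.5 in the difference of heat responses at 90 min. In upf against wild type at 0 min they were -0.22 to 0.39 for HSP23.5.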
